A study of Mus musculus with 6 samples.

Results

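The cell cycle and DNA replication genes were examined in beta-cells that had been cultured as clusters with or without the other endocrine cells of the islet. The genes were taken from a list of 44 gene names, drawn up with earlier results of these data known. Of the 44, 31 have a row among the 13535 genes of the table. By group, values were found for 8 of 12 cyclins and cyclin-dependent kinases, 8 of 10 inhibitors and retinoblastoma-family genes, 3 of 6 transcription factors, 9 of 9 replication genes and 3 of 7 mitosis and proliferation genes. *Ccnb1*, *Ccnb2*, *Cdk1*, *Cdk6*, *Cdkn1c*, *Cdkn2a*, *E2f3*, *Foxm1*, *Mycl*, *Top2a*, *Mki67*, *Bub1* and *Plk1* were not analysed here.

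The cells came from wild-type C57BL/6JRj male mice aged 12 weeks. Dispersed islet cells were sorted by flow cytometry, with cells positive for CD45, TER119 or CD31 removed, and were left to reaggregate in RPMI medium with serum for 5 days. Pseudo-islets were made of alpha-, beta- and delta-cells and pseudo-beta of beta-cells alone, and beta-cells were sorted again from both kinds of cluster before RNA was extracted. There are 3 samples of each kind from 3 experiments, numbered 35, 36 and 37, and each experiment gave 1 sample of each kind. Whether an experiment pooled the cells of several mice is not given in the sources used here, and the spread between samples is the spread between these experiments in culture.

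A cell enters the cycle when D-type cyclins bind CDK4 or CDK6 and phosphorylate the retinoblastoma protein, which releases E2F transcription factors. E2F factors switch on cyclin E, cyclin A and the genes that license and copy DNA, and a later set of genes builds the spindle and divides the chromosomes. Most beta-cells of an adult mouse are out of the cycle, cyclin D2 is the D-type cyclin best known for beta-cell growth after birth, and inhibitors of the INK4 and CIP/KIP families hold the kinases back. Several gene products act in both states, so that a transcript of one of these genes does not by itself mark a dividing cell.

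The promoters of 4 subunits of the MCM helicase, the ring that unwinds DNA at replication forks, are shown first, because these genes share E2F-type letters while their transcript levels in these beta-cells lay far apart. The sequences run from 250 bases before to 50 bases after the transcription start and are read 5′ to 3′ on the strand of the gene (RefSeq, GRCm38.p6). Capitals mark TTTCCCGC or TTTGGCGC, a pair of E2F-type motifs, on either strand. *Mcm3* lies at chr1:20820263-20820562 on the minus strand, *Mcm5* at chr8:75109259-75109558 on the plus strand, *Mcm6* at chr1:128359656-128359955 on the minus strand and *Mcm7* at chr5:138171834-138172133 on the minus strand. A further *Mcm7* promoter, at chr5:138171217-138171516, is not shown and lacks these letters.
*Mcm3*: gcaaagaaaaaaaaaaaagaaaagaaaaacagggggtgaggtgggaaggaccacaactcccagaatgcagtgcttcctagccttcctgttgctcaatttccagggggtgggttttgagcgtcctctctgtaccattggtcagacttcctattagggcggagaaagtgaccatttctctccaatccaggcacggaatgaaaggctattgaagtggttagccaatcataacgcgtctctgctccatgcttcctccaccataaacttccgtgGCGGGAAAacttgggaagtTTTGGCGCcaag
*Mcm5*: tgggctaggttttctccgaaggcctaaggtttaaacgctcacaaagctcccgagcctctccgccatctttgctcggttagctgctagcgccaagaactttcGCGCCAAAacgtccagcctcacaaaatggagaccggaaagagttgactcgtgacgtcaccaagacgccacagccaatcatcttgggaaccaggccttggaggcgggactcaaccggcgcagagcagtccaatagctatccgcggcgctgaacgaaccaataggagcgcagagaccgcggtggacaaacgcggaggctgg
*Mcm6*: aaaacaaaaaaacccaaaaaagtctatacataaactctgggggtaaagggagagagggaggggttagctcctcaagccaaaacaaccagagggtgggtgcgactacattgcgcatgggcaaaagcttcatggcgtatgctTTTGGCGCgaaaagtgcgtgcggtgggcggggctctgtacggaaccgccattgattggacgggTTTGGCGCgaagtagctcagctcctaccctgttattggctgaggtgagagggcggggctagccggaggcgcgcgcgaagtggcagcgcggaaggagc
*Mcm7*: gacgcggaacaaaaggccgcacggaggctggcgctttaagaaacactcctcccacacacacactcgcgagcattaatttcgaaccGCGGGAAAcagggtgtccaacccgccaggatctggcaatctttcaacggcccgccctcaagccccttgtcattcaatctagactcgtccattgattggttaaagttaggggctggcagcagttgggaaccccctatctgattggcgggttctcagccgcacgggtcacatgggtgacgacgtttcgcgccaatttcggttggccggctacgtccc

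RefSeq promoters were matched for 23 of the 31 genes, some with more than 1 start, which gave 27 promoters. The E2F-type letters stand in 5 of the 27 (18.5%), against 1.56% of 32851 mouse promoters of the same length, and belong to 5 of the 23 genes: *Mcm3*, *Mcm5*, *Mcm6*, *Mcm7* and *Cdk2*. Of the 8 replication genes with a promoter, 4 have them, and of the 7 inhibitors 0 do. With 1.56% of all promoters matching, 0 of 7 does not set the inhibitors apart. Only the letters given above were searched, and related E2F-type letters were not. TTTGAA or TTTAAA, the letters of the cell cycle homology region found in promoters of mitotic genes, were found in 10 of the 27 promoters (37.0%), against 27.6% of all promoters, and in all 3 mitosis genes with values. TTTAAA reads the same on both strands. A match describes these windows and does not show that a factor binds there.

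The levels of the 31 genes span the range of the table. Divided by the length of the longest coding transcript, the level of *Ccnd2*, averaged over the 6 samples, was 3815 normalized counts per kilobase, above that of 98.2% of the 11566 genes with a length. *Cdk4*, the partner kinase of the D cyclins, followed at 1274, and *Pcna*, the sliding clamp of the replication fork, at 768. *Ccnd1* had 658 and *Cdkn1a*, which encodes the inhibitor p21, had 608. At the other end, *Mcm5* (4.27), *Mcm3* (4.10) and *Knl1* (1.21), a kinetochore scaffold, had the lowest levels of the 31, and *Knl1* stood at the 0.156 percentile of genes with a length.

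Neighbours in this order often overlapped from sample to sample, but some steps did not. Per kilobase, *Ccnd2* lay between 3507 and 4270 in the 6 samples, *Cdk4* between 1087 and 1411, and *Ccnd1* between 429 and 849, so that the ranges are apart. *Ccnd3*, the other D-type cyclin, lay lower still, between 206 and 322. *Pcna* (662 to 840) and *Ccnd1* (429 to 849) cannot be ordered. *Cdk2*, the kinase that cyclins E and A activate, had 10.2 to 21.9 per kilobase, far under *Cdk4* in every sample.

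The helicase subunits, which assemble in equal numbers, had unequal transcript levels. Per kilobase, *Mcm6* (58.0), *Mcm4* (56.6) and *Mcm7* (55.3) had like means and overlapping samples, and *Mcm2* had 29.8. *Mcm5* (4.27) and *Mcm3* (4.10) stood far lower. The highest of the 6 samples had 8.75 for *Mcm3* and 12.2 for *Mcm5*, and the lowest of *Mcm2* had 23.9, so the sets are apart in every sample. The division by 1 transcript length per gene was not adjusted for which transcripts were present, and values as low as those of *Mcm3* and *Mcm5* rest on few reads.

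**Figure D1:**
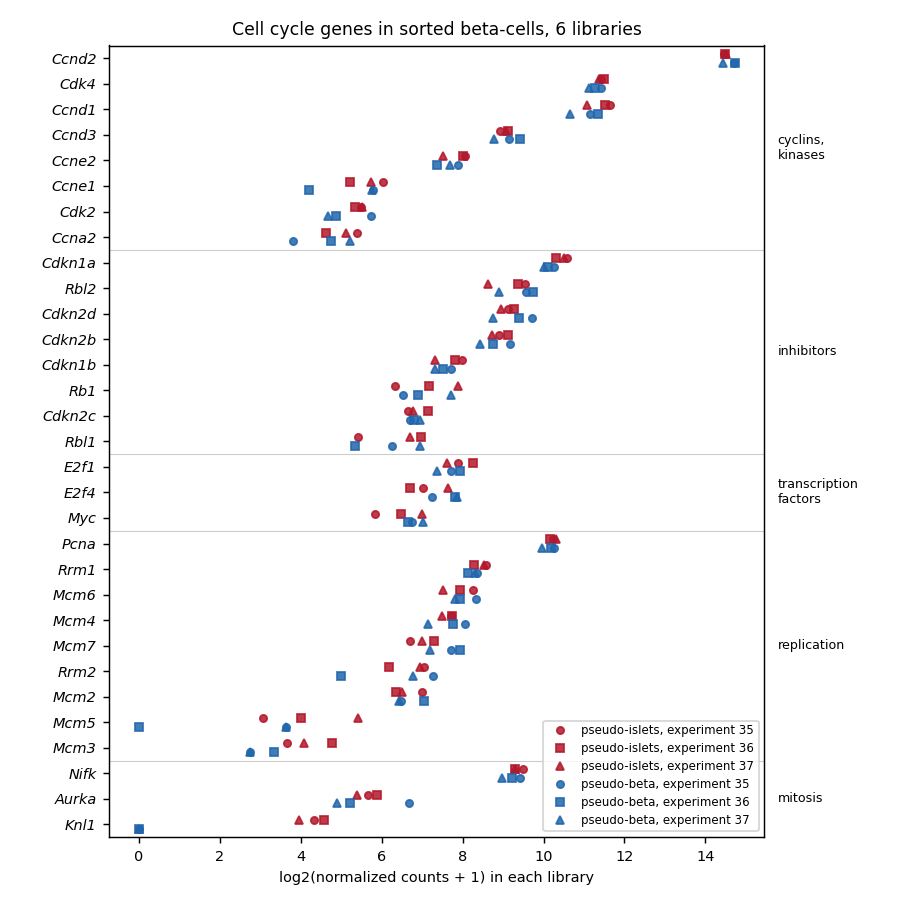
Level of each of the 31 genes in the 6 samples, as log2(normalized counts + 1) and not divided by length, with genes ordered by mean level within each group. Red marks pseudo-islets, blue marks pseudo-beta, and the circle, square and triangle mark experiments 35, 36 and 37. The red and blue points of most genes overlap, and *Knl1* is at 0 in the 3 pseudo-beta samples.

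The comparison of interest was whether beta-cells that had shared a cluster with alpha- and delta-cells differed in these genes from beta-cells clustered alone. None of the 31 was called, where a call is an adjusted p under 0.05 in limma on log2(normalized counts + 1) with Benjamini-Hochberg adjustment over all genes. In the table as a whole 8 of 13535 genes were called (0.0591%), all 8 higher in pseudo-islets. Fitting the experiment as a block, since each experiment gave 1 sample of each kind, called 73 genes (0.539%) and again 0 of the 31. At an unadjusted p under 0.05 there were 2 of the 31 without the block, *Cdkn1a* and *Knl1*, where all genes had 5.4%, and 4 with it, *Cdkn1a*, *Knl1*, *Ccnd1* and *Mcm7*, where all genes had 11.9%. Both shares, 6.45% and 12.9%, lie near those of all genes.

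Most of the fitted differences were small. The median log2 fold change of the 31, given throughout as pseudo-islets over pseudo-beta, was 0.16, with 21 positive and 10 negative, and the median of all genes was 0.01, with 51.4% positive. Without the 10 most abundant genes in the scaling 19 were positive, with a median of 0.10, and after quantile normalization 23. The median of the 31 was 0.081 without the pseudo-beta sample of experiment 36, 0.088 without that of experiment 37, 0.11 without the pseudo-islet sample of experiment 36, and, with the block, 0.043 without experiment 36 and 0.099 without experiment 37. All 6 of the 31 genes with a mean under 50 normalized counts were positive, with a median of 0.84. Of the 25 with a mean from 50, 15 were positive (60%), with a median of 0.08, where 52.9% of all genes at that level were positive. The 3 experiments gave the same sign for 14 of the 31, or 45.2%, where all genes had 33.1%. The samples of the groups did not overlap for 3 of the 31, *Cdkn1a*, *Mcm3* and *Knl1*, where 10.8% of all genes did not. *Mcm3* and *Knl1* met the floor of the table through the pseudo-islets alone, so that having a row at all required this of them. It also fixed their positive sign in 3 of 3 experiments, which the counts above include.

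How large a difference could have been missed follows from the 95% confidence intervals. Without the block, the interval lay within a 1.5-fold change in either direction for 5 of the 31, *Ccnd2*, *Ccnd3*, *Cdk4*, *Pcna* and *Nifk*, where 27.3% of all genes had such an interval. With the block it did so for 13 of the 31, where all genes had 42%. For the other genes a change of 1.5-fold or more was not excluded by the interval, and a p that misses the threshold does not show that the groups were alike. In sorted bulk RNA, fewer cells with a transcript and less of it per cell cannot be told apart, and this holds for each value below.

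**Figure D2:**
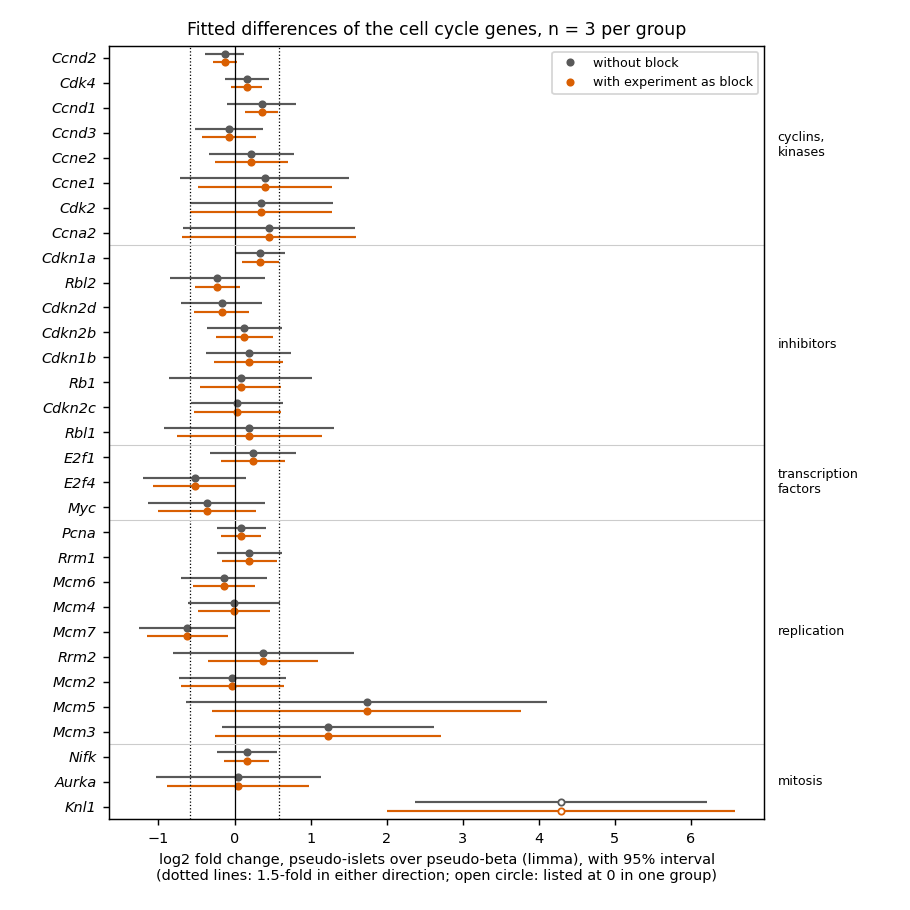
Log2 fold change of each of the 31 genes, pseudo-islets over pseudo-beta, with its 95% interval, in limma without (grey) and with (orange) the experiment as a block, n = 3 per group. Dotted lines mark 1.5-fold. Intervals of *Ccnd2*, *Cdk4* and *Pcna* are narrow, those of *Mcm3* and *Mcm5* are wide, and the open circle of *Knl1* is a value set by the pseudocount because its pseudo-beta samples are listed at 0.

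Among the cyclins and kinases, *Ccnd2* was the most abundant and one of the most tightly bounded. Here and below, 3 values are normalized counts in the order of experiments 35, 36 and 37. *Ccnd2* read 22639, 23098 and 23397 in pseudo-islets against 26527, 27026 and 22202 in pseudo-beta. The pseudo-islets lay inside the range of the pseudo-beta samples, lower in experiments 35 and 36 and higher in experiment 37. Its log2 fold change was -0.13 ± 0.12 (SE, n = 3 per group), with a 95% interval from -0.38 to 0.13 and an adjusted p of 0.998 in limma.

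*Ccnd1*, which encodes cyclin D1, had the opposite sign. The pseudo-islet values were 3176, 2929 and 2151 and the pseudo-beta values 2276, 2621 and 1604. Pseudo-islets were higher in 3 of 3 experiments, by 1.40-, 1.12- and 1.34-fold, but the groups overlapped, because experiment 37 was low in both. Differences between experiments made up 65.4% of its variance on the log2 scale. Fitted over the 3 experiments, the log2 fold change was 0.35 ± 0.21 (SE, n = 3 per group; adjusted p = 0.969 in limma), and with the block the SE fell to 0.10 and the adjusted p was 0.173, still short of a call. Cyclins D1 and D2 were thus of opposite sign in experiments 35 and 36 but not in experiment 37, and the difference between them was not tested.

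*Cdk4* had 2747, 2897 and 2626 in pseudo-islets against 2721, 2468 and 2233 in pseudo-beta. Pseudo-islets were higher in 3 of 3 experiments, by little in experiment 35 and by 1.17- and 1.18-fold in the others, with overlapping groups. limma gave a log2 fold change of 0.16 ± 0.13 (SE, n = 3 per group; adjusted p = 0.992), and the 95% interval ran from -0.13 to 0.45. *Ccnd3* had a log2 fold change of -0.07, with an interval from -0.52 to 0.37.

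The cyclins and the kinase of the G1-to-S step were scarcer and less precise. *Ccne1* and *Ccne2* encode cyclins E1 and E2, with log2 fold changes of 0.40 and 0.22, and *Ccna2* encodes cyclin A2, with 0.45. *Cdk2* had 0.35. The 4 intervals all crossed 0, and the 3 experiments disagreed in sign for each of these genes. *Ccna2*, for example, read 41.2, 23.5 and 33.7 in pseudo-islets against 12.9, 26.0 and 36.5 in pseudo-beta, so that pseudo-islets were higher in experiment 35 alone. Genes on the opposite strand overlap *Ccna2* (*Exosc9*), *Ccne2* (*Ints8*), *Cdk2* (*Pmel*) and *Cdk4* (*Tspan31*), and their reads may be included. Others of the listed genes have such overlaps too, among them *Ccnd1*, *Ccnd2*, *Ccnd3*, *Cdkn1a*, *Rb1* and *Rbl2*.

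**Figure D3:**
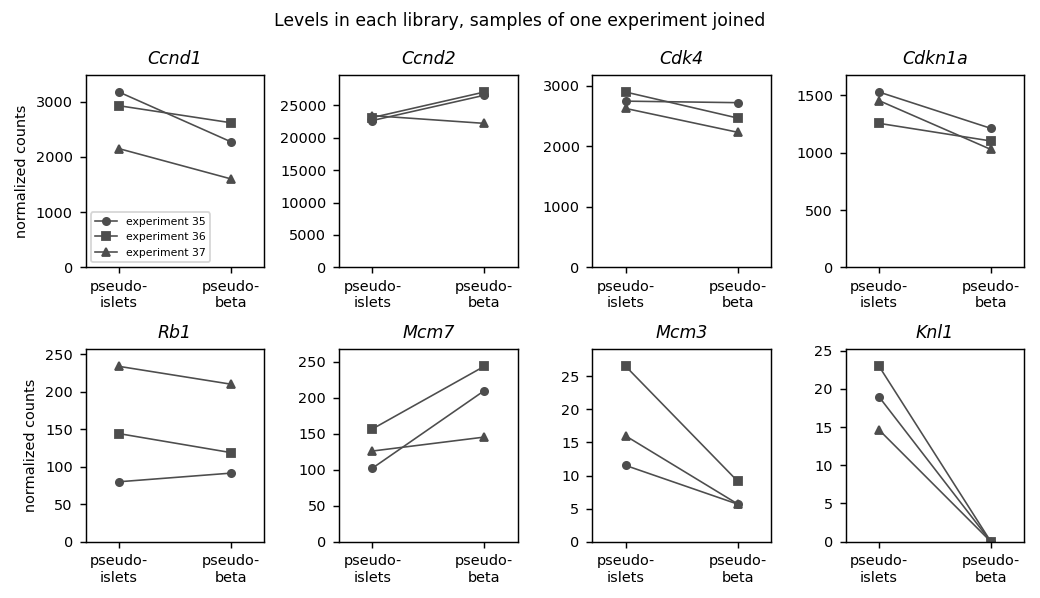
Normalized counts of 8 genes in each sample, with the samples of one experiment joined by a line and each vertical axis starting at 0. *Ccnd1*, *Cdk4* and *Cdkn1a* are higher in pseudo-islets in 3 of 3 experiments, *Mcm7* is lower in 3 of 3, the lines of *Rb1* are ordered by experiment, and *Knl1* is listed at 0 in each pseudo-beta sample.

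Of the inhibitors, *Cdkn1a* was the gene whose samples were best separated. It lies on chromosome 17 from 29090976 to 29100727 (GRCm38) and encodes p21, an inhibitor of cyclin-dependent kinases that p53 induces. The pseudo-islet values were 1530, 1257 and 1455 and the pseudo-beta values 1213, 1103 and 1029. Every pseudo-islet sample was above every pseudo-beta sample, by 1.14-fold in experiment 36 and 1.41-fold in experiment 37. The fitted log2 fold change was 0.34 ± 0.15 (SE, n = 3 per group), with an unadjusted p of 0.044 and an adjusted p of 0.917 in limma. With the block the adjusted p was 0.257, and the exact two-sided permutation test gave p = 0.1, the smallest that 3 samples against 3 allow. *Cdkn1a* was therefore not called.

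The genes listed here for the p53 and DNA damage response, *Trp53* among them, were split evenly in sign. Of 19 listed, 18 have values, 0 were called in limma without or with the block, where 0.0591% and 0.539% of all genes were, and 1 and 2 had an unadjusted p under 0.05, where 5.4% and 11.9% of all genes had. Of the 18, 9 had a positive and 9 a negative log2 fold change, with a median of -0.01.

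The other inhibitors showed no separation. *Cdkn1b*, which encodes p27, had 252, 222 and 159 in pseudo-islets against 210, 182 and 158 in pseudo-beta, with a log2 fold change of 0.18 ± 0.25 (SE, n = 3 per group). Both groups were highest in experiment 35 and lowest in experiment 37, and 79.5% of the variance lay between experiments. The INK4 genes, whose products bind CDK4 and CDK6, had log2 fold changes of 0.13 for *Cdkn2b* (p15), 0.03 for *Cdkn2c* (p18) and -0.17 for *Cdkn2d* (p19). *Cdkn2d* was lower in pseudo-islets in experiments 35 and 36 and higher in experiment 37, with 556, 618 and 496 in pseudo-islets against 837, 668 and 432 in pseudo-beta. The 95% intervals of these 4 genes all crossed 0.

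The retinoblastoma family, which holds E2F factors in check, varied with the experiment more than with the kind of cluster. *Rb1* had 79.9, 144 and 234 in pseudo-islets against 91.4, 119 and 210 in pseudo-beta. Its level in experiment 37 was 2.57-fold that in experiment 35, and differences between experiments made up 96.5% of its variance, against 0.488% between the groups. *Rbl2* (p130), the family member of resting cells, was lower in pseudo-islets in 3 of 3 experiments, with 740, 663 and 394 in pseudo-islets against 762, 848 and 478 in pseudo-beta. The log2 fold change of *Rbl2* was -0.23 ± 0.28 (SE, n = 3 per group), and 89.0% of its variance lay between experiments. *Rbl1* (p107) had a log2 fold change of 0.19 and signs that differed between experiments.

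The share between experiments of *Rb1* lay far above the median of the listed genes. Over the 31 genes the experiment accounted for a median of 52.1% of the variance and the group for 18%, where the medians over all genes were 52.1% and 11.8%. The experiment accounted for more than the group in 24 of the 31 (77.4%) and in 75.7% of all genes. There are more experiments than groups, so the experiment takes the larger share in most genes even where neither has an effect. These medians and counts therefore do not by themselves show an effect of the experiment.

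Among the transcription factors, *E2f1*, an activator of S-phase genes, had the higher pseudo-islet value in 3 of 3 experiments and *E2f4*, which acts mainly in repressor complexes with p107 and p130, was lower in 3 of 3. Neither was called. *E2f1* had 234, 305 and 194 in pseudo-islets against 208, 244 and 164 in pseudo-beta, which gave a log2 fold change of 0.24 ± 0.26 (SE, n = 3 per group). *E2f4* had 128, 102 and 199 in pseudo-islets against 151, 222 and 231 in pseudo-beta, which gave a log2 fold change of -0.53 ± 0.31 (SE, n = 3 per group; adjusted p = 0.969 in limma, 0.440 with the block). The groups overlapped for both genes. *Myc*, which encodes a growth-promoting factor, had 55.7, 88.0 and 126 in pseudo-islets against 106, 98.6 and 128 in pseudo-beta. It was lower in pseudo-islets in each experiment, though by little in experiment 37, with a log2 fold change of -0.37 ± 0.34 (SE, n = 3 per group).

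Of the replication genes, *Pcna* and *Rrm1* were the most abundant and had small fitted differences. *Mcm3* and *Mcm5* were the scarcest and had the widest intervals. *Pcna* had 1194, 1133 and 1275 in pseudo-islets against 1228, 1160 and 1004 in pseudo-beta, with a log2 fold change of 0.09 ± 0.15 (SE, n = 3 per group) and an interval from -0.24 to 0.42. *Rrm1*, the large subunit of ribonucleotide reductase, had the higher pseudo-islet value in 3 of 3 experiments, by 1.15-, 1.11- and 1.18-fold, with overlapping groups. *Rrm2*, the small subunit, which in dividing cells is made in S phase, had 131, 72.0 and 122 in pseudo-islets against 153, 30.9 and 109 in pseudo-beta. Both groups were low in experiment 36, and 78.6% of the variance of *Rrm2* lay between experiments.

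The 6 helicase subunits had fitted differences of both signs, and none was called. *Mcm7* was lower in pseudo-islets in 3 of 3 experiments, with 102, 156 and 126 in pseudo-islets against 209, 243 and 145 in pseudo-beta, and the groups overlapped only because the pseudo-beta sample of experiment 37 was below the pseudo-islet sample of experiment 36. The log2 fold change was -0.62 ± 0.29 (SE, n = 3 per group), with an adjusted p of 0.921 in limma and 0.344 with the block. *Mcm7* (chromosome 5 from 138164583 to 138172422, GRCm38) contains *Mir106b*, *Mir93* and *Mir25* on its own strand and overlaps *Ap4m1* and *Cops6* on the other, so its value may include their reads.

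*Mcm3* had the opposite sign. The pseudo-islet values were 11.5, 26.5 and 16.0 and the pseudo-beta values 5.69, 9.17 and 5.72, and every pseudo-islet sample was above every pseudo-beta sample. The log2 fold change on the log2(value + 1) scale was 1.23 ± 0.63 (SE, n = 3 per group; adjusted p = 0.961 in limma), with an interval from -0.17 to 2.62. *Mcm5* had 7.41, 15.0 and 41.3 in pseudo-islets against 11.4, 0 and 11.5 in pseudo-beta, was lower in pseudo-islets in experiment 35, and had a log2 fold change of 1.73 ± 1.07 (SE, n = 3 per group). With 1 pseudo-beta sample listed at 0, that value depends on the pseudocount, and it was 2.82 with a pseudocount of 0.1, 0.76 with one of 10 and 0.52 without that sample. *Mcm2*, *Mcm4* and *Mcm6* had log2 fold changes of -0.03, -0.01 and -0.14. *Mcm3*, *Mcm5*, *Mcm6* and, in the promoter shown above, *Mcm7* have the E2F-type letters, and *Mcm2* has not. Whether the differences are related to these letters was not tested. No promoter of *Mcm4* was matched.

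*Knl1*, a scaffold that joins chromosomes to spindle microtubules, stood out by its zeros. It lies on chromosome 2 from 119047119 to 119105501 (GRCm38) and had 18.9, 22.9 and 14.6 in pseudo-islets against 0, 0 and 0 in pseudo-beta. It was the 1 gene of 13535 that was listed at 0 in all 3 pseudo-beta samples and at 10 or more in all 3 pseudo-islets, and 0 genes had the reverse. No fold is given, since the fitted log2 value of 4.29 depends on the pseudocount. The adjusted p was 0.342 in limma and 0.129 with the block. The exact two-sided permutation test gave 0.1, the smallest p possible, which was fixed once *Knl1* had a row through the pseudo-islets alone. When all genes took one prior variance *Knl1* was called, with an adjusted p of 0.00623, as 1 of 2 genes in the table (0.0148%). Over the alternatives in which it was tested, its adjusted p ran from 0.00623 to 1.00.

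The floor of the table bears on *Knl1* and *Mcm3*. Every gene has at least 10 normalized counts in at least 3 samples, and both genes met this through the pseudo-islets alone, so that their groups could not overlap once they had a row. Among all genes, 39 met it through the pseudo-islets alone and 39 through the pseudo-beta samples alone. Only *Cdkn1a* among the 3 genes with separate groups was free of this. The p-values of *Knl1* and *Mcm3*, and the call of *Knl1*, come from genes selected in this way and are no support for a difference. A level near 20 normalized counts over a transcript of 7800 bases, as for *Knl1*, is among the lowest in the table, and 288 genes are listed at 0 in at least 1 sample.

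The other genes of this group were detected in all samples. *Aurka*, a kinase that matures the spindle poles, had 49.99, 57.9 and 40.7 in pseudo-islets against 101, 36.1 and 28.7 in pseudo-beta, with a log2 fold change of 0.05 ± 0.49 (SE, n = 3 per group). The highest and the 2 lowest of its samples were all pseudo-beta. *Nifk*, a nucleolar protein that binds Ki67, had 725, 622 and 632 in pseudo-islets against 680, 597 and 503 in pseudo-beta, higher in pseudo-islets in 3 of 3 experiments with overlapping groups and a log2 fold change of 0.16 ± 0.18 (SE, n = 3 per group).

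Further genes of the same processes were taken from 7 lists with 169 genes, of which 139 have values. None was called, either without or with the block, and 6 of the 139 (4.32%) and 16 of the 139 (11.5%) had an unadjusted p under 0.05, where all genes had 5.4% and 11.9%. The groups did not overlap for 11 of the 139 (7.91%), where 10.8% of all genes did not. These shares were highest in the CDK control list, where the groups did not overlap for 5 of 24 genes (20.8%). In that list 3 genes (12.5%) without the block and 6 (25%) with it had an unadjusted p under 0.05. The medians of the log2 fold change were 0.15 for 18 genes of origin licensing and firing, 0.01 for 28 of the fork and nucleotide synthesis, 0.04 for 17 of the kinetochore and its checkpoint, 0.27 for 16 mitotic kinases, motors and cytokinesis genes, 0.00 for 24 of CDK control and 0.00 for 18 of the E2F, DREAM and MYC network.

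**Figure D4:**
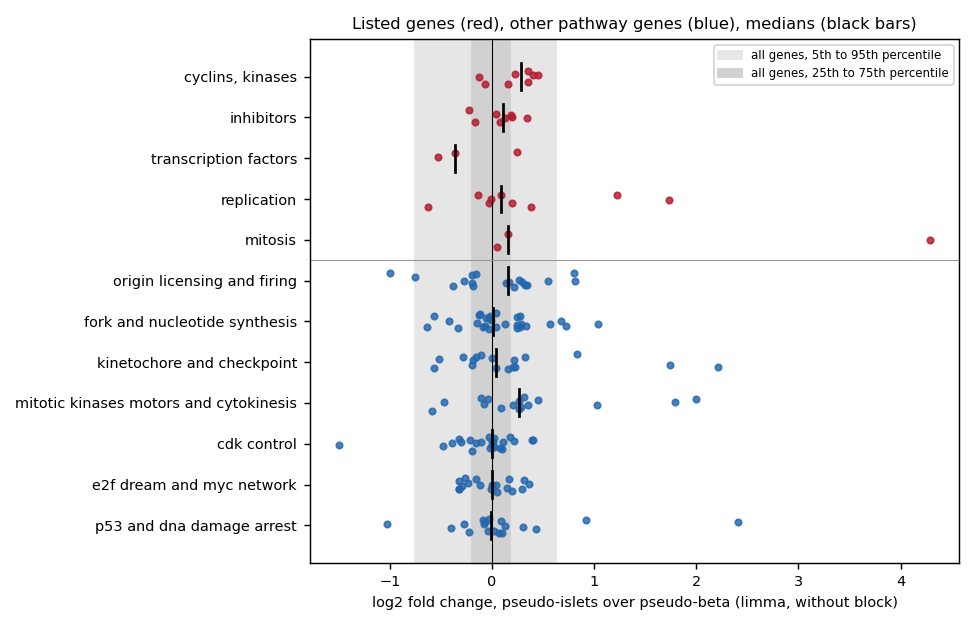
Log2 fold change, pseudo-islets over pseudo-beta, of each gene in the 5 groups above (red) and in 7 further lists (blue), with list medians as black bars and the middle 50% and 90% of all genes as dark and light bands. Most points lie in the light band, and the points beyond 1 on the right, among them *Mcm3*, *Mcm5*, *Knl1* and *Bub1b*, have means under 50 normalized counts.

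Few genes of these lists had separate groups and a mean over the samples that reached 50 normalized counts. *Ccnl2*, a cyclin of transcription and splicing kinases, not of the division cycle, was the nearest to a call. It had 1374, 1318 and 1252 in pseudo-islets against 1738, 1886 and 1869 in pseudo-beta, every pseudo-islet sample under every pseudo-beta sample. Its log2 fold change was -0.48 ± 0.13 (SE, n = 3 per group; adjusted p = 0.637 in limma and 0.0757 with the block). It was called, with adjusted p of 0.0450 and 0.0440, when the block was joined with a floor of 10 in every sample or with scaling that left out the 10 most abundant genes.

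*Ccnc*, the cyclin of the Mediator kinase, had 828, 799 and 806 in pseudo-islets against 762, 506 and 601 in pseudo-beta, which gave a log2 fold change of 0.40 ± 0.18 (SE, n = 3 per group). In the replication lists, *Gins3* of the helicase complex had a log2 fold change of 0.34, *Pola2* of the primase complex had 0.57 and *Pole3* of DNA polymerase epsilon had -0.34. None of these 4 genes was called, and the lowest adjusted p among them without the block was 0.921. *Ccng1*, of the CDK control list, was named after its values were seen. It had 2845, 2939 and 2257 in pseudo-islets against 2275, 2193 and 1681 in pseudo-beta, with overlapping groups. Its log2 fold change was 0.39 ± 0.16 (SE, n = 3 per group; adjusted p = 0.901 in limma and 0.0979 with the block).

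Kinetochore genes other than *Knl1* lay at low and at high levels. *Bub1b*, a spindle checkpoint kinase, had 11.9, 12.3 and 10.1 in pseudo-islets against 3.85, 0 and 2.94 in pseudo-beta, and it too met the floor through the pseudo-islets alone. *Ndc80*, which grips the microtubule, had 25.2, 11.2 and 33.2 in pseudo-islets against 0, 12.6 and 20.3 in pseudo-beta, with overlapping groups. *Zwint* and *Spc25* stood apart by their level, with *Zwint* between 4881 and 7548 normalized counts and *Spc25* between 6940 and 12314 over the 6 samples. *Zwint* had the higher pseudo-islet value in 3 of 3 experiments, with a log2 fold change of 0.32 ± 0.14 (SE, n = 3 per group; adjusted p = 0.92 in limma and 0.114 with the block). *Bub1b*, *Ndc80*, *Zwint* and *Spc25* were named after their values were seen.

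The sorted cells had the markers of beta-cells, and of the markers of other cells 1 alpha-cell gene and 1 delta-cell gene were called without the block. With the block, 3 alpha-cell genes (*Gcg*, *Etv1* and *Ttr*), 1 delta-cell gene (*Sst*), 2 genes of pancreatic polypeptide cells (*Pyy* and *Ppy*) and 1 immune gene (*C1qa*) were called, all higher in pseudo-islets. All 10 beta-cell markers have values, and their sum lay between 7220070 and 8337440 normalized counts in pseudo-islets and between 6961550 and 7704910 in pseudo-beta. The sum of 8 of 12 alpha-cell markers lay between 26447 and 34548 in pseudo-islets and between 23389 and 25660 in pseudo-beta, and that of 2 of 8 delta-cell markers between 369 and 532 and between 249 and 273. *Gcg*, the glucagon gene, had 1763, 941 and 2094 in pseudo-islets against 36.1, 14.1 and 0 in pseudo-beta (adjusted p = 0.0437 in limma). *Sst*, the somatostatin gene, had 190.2, 146 and 210.2 in pseudo-islets against 0, 0 and 4.74 in pseudo-beta (adjusted p = 0.0189 in limma). Every pseudo-islet sample was above every pseudo-beta sample for both hormone genes. The sum of 3 of 4 markers of pancreatic polypeptide cells lay between 3894 and 9146 in pseudo-islets and between 3057 and 5376 in pseudo-beta. The sum of 2 of 10 immune markers, *Cd68* and *C1qa*, lay between 1656 and 2675 in pseudo-islets and between 988 and 1416 in pseudo-beta. This sum was nearly all *C1qa*, since *Cd68* had at most 18.6 in any sample, and no value was found for the other immune markers. The sum of 2 of 8 endothelial markers lay between 73.7 and 89.3 in pseudo-islets and between 83.3 and 119 in pseudo-beta. No value was found for the 8 stromal or the 12 acinar markers. The part of other cells in the values of *Knl1*, *Mcm3*, *Cdkn1a* and the other genes above was not tested.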

How the data were processed

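RNA of sorted beta-cells was measured in 6 samples, 3 from pseudo-islets and 3 from pseudo-beta. Libraries were made by the authors with the Ovation Solo kit (5 ng of RNA each) and sequenced as paired reads of 75 bases. STAR 2.7.6a aligned the reads to GRCm38 and RSEM 1.3.1 estimated counts per gene. The annotation release is not given in the sources used here. The deposited signal is in normalized counts, made by the authors with DESeq2 1.26.0 in R 3.6.3, and sums to between 17994346 and 19635287 in a library. Depth in reads is not known: of values from 0.3 to 40, at most 26.8% to 42.9% were whole multiples of any 1 step, within 0.02 of it. The authors' columns of mean signal, log2 fold change with its error, test statistic (a score) and p-value hold their own comparison and were not used.

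limma 3.58.1 (R 4.3.3) was fitted to log2(value + 1) of all 13535 genes, with a variance trend and no block. P-values were adjusted by Benjamini-Hochberg and genes called at an adjusted p under 0.05. All genes have at least 10 in at least 3 samples, so no filter was added. The procedure was run on simulated data without differences between experiments and with changes only in genes above about 50 normalized counts. That run does not cover scarce genes such as *Knl1*, *Mcm3* and *Mcm5*. Samples of one number come from one experiment. Deviations from the group means correlated, across genes, at 0.119, 0.121 and 0.325 within experiments and at -0.203 to 0.0922 across them, so the experiment was fitted as a block in an alternative. Others changed the prior variance, the pseudocount (0.1, 10), the floor, the scaling and the samples. Lengths and positions are from GENCODE M21. Each listed gene with a row is named, and of the other lists the genes called in either fit and the highest and lowest with a mean of at least 50 and separate groups. The genes and lists were chosen with earlier results of these data known.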

Additional observations from a re-analysis of the deposited data

How the results depend on the processing

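Over 19 alternatives, none of the 31 genes was called except *Knl1*, in 1 of them. With the experiment as a block, 73 genes of the whole table were called in place of 8, and pairing by experiment changed no call of the 31 genes. The table's count was 118 with the block and a floor of 10 in every sample, 82 with the block and scaling without the 10 most abundant genes, 2 with that scaling alone, 2 with quantile normalization, 1 with a pseudocount of 0.1, 2 when all genes took one prior variance, where 1 of the 31 genes (*Knl1*) was called, and 0 with that and the block (1136 genes at an unadjusted p under 0.05). Leaving out 1 sample gave 0 to 13 calls, and leaving out 1 experiment with the block 28 to 73. Of the further lists, 1 gene, *Ccnl2*, was called with the block and either that floor or that scaling. *Knl1*, *Mcm3* and *Mcm5* were not tested under the floor of 10 in every sample.

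The median log2 fold change of the inhibitors turned from 0.10 to -0.042 without pseudo-islets of experiment 36 and to -0.073 with the block and without experiment 36. That of the replication genes turned from 0.09 to -0.0057 with the floor of 10 in every sample and to -0.038 with the block and without experiment 37. The median of the cyclins and kinases was 0.23 with the scaling without the 10 most abundant genes, with or without the block, and 0.11 to 0.34 with samples left out. That of the 3 transcription factors ran from -0.65, without pseudo-islets of experiment 37, to -0.064, without those of experiment 35, and that of the 3 mitosis genes ran from 0.046 to 0.59, the latter without the pseudo-beta sample of experiment 35, where *Aurka* is highest.

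Signs of small differences turned for 15 of the 31 genes, for 11 of them only with samples left out. With the scaling without the 10 most abundant genes, in both fits, *Aurka* was -0.0075 and *Cdkn2c* -0.024, and with quantile normalization *Mcm2* was 0.028 and *Mcm4* 0.036. With samples left out, the values of those that turned were -0.12 to 0.67 for *Ccne1*, -0.31 to 0.31 for *Mcm2*, -0.30 to 0.84 for *Rrm2*, -0.29 to 0.48 for *Rb1*, -0.26 to 0.19 for *Mcm4*, -0.32 to 0.053 for *Mcm6*, -0.038 to 0.16 for *Pcna*, -0.30 to 0.59 for *Aurka*, -0.53 to 0.70 for *Rbl1*, -0.13 to 0.77 for *Ccna2*, -0.13 to 0.15 for *Cdkn2c*, -0.47 to 0.051 for *Rbl2*, -0.27 to 0.081 for *Ccnd3*, -0.048 to 0.34 for *Cdkn2b* and -0.43 to 0.045 for *Cdkn2d*. *Ccnd1*, *Ccnd2*, *Cdk4*, *Cdkn1a*, *Cdkn1b*, *E2f1*, *E2f4*, *Myc*, *Mcm3*, *Mcm5*, *Mcm7*, *Rrm1*, *Nifk*, *Knl1*, *Cdk2* and *Ccne2* kept their sign in each alternative that tested them. With 3 samples per group and no read depths, low genes such as *Mcm3* and *Knl1* are the least certain.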
